A study of Mus musculus with 7 samples.

Results

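The genes described here are 9 genes of extracellular proteolysis in eosinophils sorted from damaged mouse muscle: the matrix metalloproteinases Mmp2, Mmp9, Mmp14, Mmp19 and Mmp25, their tissue inhibitors Timp1 and Timp2, and the membrane proteases Adam8 and Adam19. They were chosen by gene symbol, with earlier results of these data known, and all 9 were found among the 24421 genes of the count table. The 7 libraries came from mice of 2 labelled genotypes, 3 from WT mice and 4 from IL5-Tg mice. The name IL5-Tg denotes a transgene for IL-5, the cytokine on which eosinophils depend for growth and survival. The labels give no strain, age, promoter or cell type for the transgene, and the series title concerns mdx mice, a model of Duchenne muscular dystrophy, without saying whether these mice carried the mdx allele. Every library was of muscle taken 3 days after an event that the labels call ntx and do not spell out. The cells were sorted by flow cytometry as CD45-positive and SiglecF-positive, and as negative for NK1, Ly6G and CD3e. The series asked how an excess of eosinophils bears on muscle homeostasis, regeneration and repair.

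Matrix metalloproteinases are zinc enzymes that are made as inactive precursors and cleave collagens, laminins and other proteins outside the cell. TIMPs bind their active site and block it, and ADAMs are related enzymes that cut the outer part of membrane proteins from the cell surface. In injured muscle these enzymes are known for opening the basement membrane to incoming leukocytes and for remodelling the scar, and much of the Mmp2, Mmp14 and Timp RNA of a tissue is usually made by its stromal cells.

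Reads assigned to genes ranged from 9665093 to 17447106 per library. Whether each library is a different mouse is not stated, and p-values here measure the spread between libraries only. Levels are CPM, read counts scaled to a common library size, with TMM-scaled library sizes. RNA of other cells was also found, and WT replicate 3 stood apart from the other libraries. The 10 fibroblast markers, all of them tested, summed to 2970 and 3279 CPM in WT replicates 1 and 2, to 16.9 CPM in WT replicate 3 and to 1997 to 4993 CPM in IL5-Tg libraries. No defining fibroblast marker was at 0 there: Col1a1, Col1a2 and Col3a1 had 51, 26 and 48 reads in WT replicate 3. In that library the complement genes C1qa, C1qb and C1qc of macrophages stood at 13.1%, 14.3% and 14.3% of the mean of the other WT libraries. The 10 macrophage and monocyte markers summed to 3858 CPM in WT replicate 3, against 3710 and 5375 CPM in WT replicates 1 and 2. Over the IL5-Tg libraries the sum ranged from 4941 to 5854 CPM. The most abundant of these markers, Adgre1, was at 2459 CPM in WT replicate 3 against 1287 and 1416 CPM in WT replicates 1 and 2. Adgre1 was thus higher there and the complement genes lower, so the sum does not show how macrophage RNA stood in WT replicate 3. Siglecf, which encodes the surface protein of the sort, stood at 181% of the mean of the other WT libraries. The eosinophil identity of the libraries was checked by Siglecf, Ccr3 and Il5ra, which had at least 512 reads in every library. The muscle fibre list and the mast cell and basophil list separated the genotypes by their sums. The 8 muscle fibre markers summed to 72.5 to 307 CPM in WT and 357 to 1088 CPM in IL5-Tg libraries, with a median log2 fold change of 1.71 and 0 genes called by edgeR, 1 gene being at an unadjusted p under 0.05, while DESeq2 called Atp2a1 higher and limma-voom called 0. The 8 mast cell and basophil markers, 7 of them tested, summed to 238 to 534 CPM in WT and 132 to 143 CPM in IL5-Tg libraries. Their median was -2.29, with 1 log2 fold change above 0, and edgeR called Hdc, the enzyme of histamine synthesis, lower. DESeq2 with all libraries and edgeR without WT replicate 3 called Hdc lower and Gata2 higher, and limma-voom called Hdc alone. Of the 10 eosinophil markers edgeR called 3 higher, the granule protein genes Prg2, Ear1 and Ear6. Of the 10 log2 fold changes 8 were above 0, with a median of 1.04. The sums overlapped, at 1640 to 3314 CPM in WT and 2249 to 4409 CPM in IL5-Tg libraries. Ccr3 was at 1305, 640 and 1393 CPM in WT replicates 1 to 3. In IL5-Tg replicates 1 to 4 Ccr3 was at 707, 1058, 575 and 618 CPM. Il5ra was at 126, 83.8 and 181 CPM in the WT and 48.0, 88.3, 55.6 and 74.8 CPM in the IL5-Tg libraries. Reads of Ear1 and Ear6 may be divided between near-identical copies or left uncounted. The part of such RNA in the levels of the 9 genes was not tested. Results are given with and without WT replicate 3.

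None of the 9 genes changed between genotypes by edgeR's quasi-likelihood test at an adjusted p under 0.05. All 9 passed the filter on low counts, and 3 of them, Mmp9, Mmp25 and Adam19, had an unadjusted p under 0.05, against 9.04% of all 12428 tested genes. Among all tested genes 51, or 0.410%, were called, 0.338% higher and 0.0724% lower in IL5-Tg. DESeq2 and limma-voom also called 0 of the 9 genes, where DESeq2 called 1.14% of tested genes higher and 0.677% lower and limma-voom 0.193% and 0.0644%. Without WT replicate 3 edgeR called 0 of the 9, beside 0.612% of tested genes higher and 0.139% lower. Of the 9 log2 fold changes 7 were above 0 (higher in IL5-Tg), with a median of 0.45, where the median of all tested genes was 0.03. Without WT replicate 3 the median of the 9 was 0.08.

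**Figure D1:**
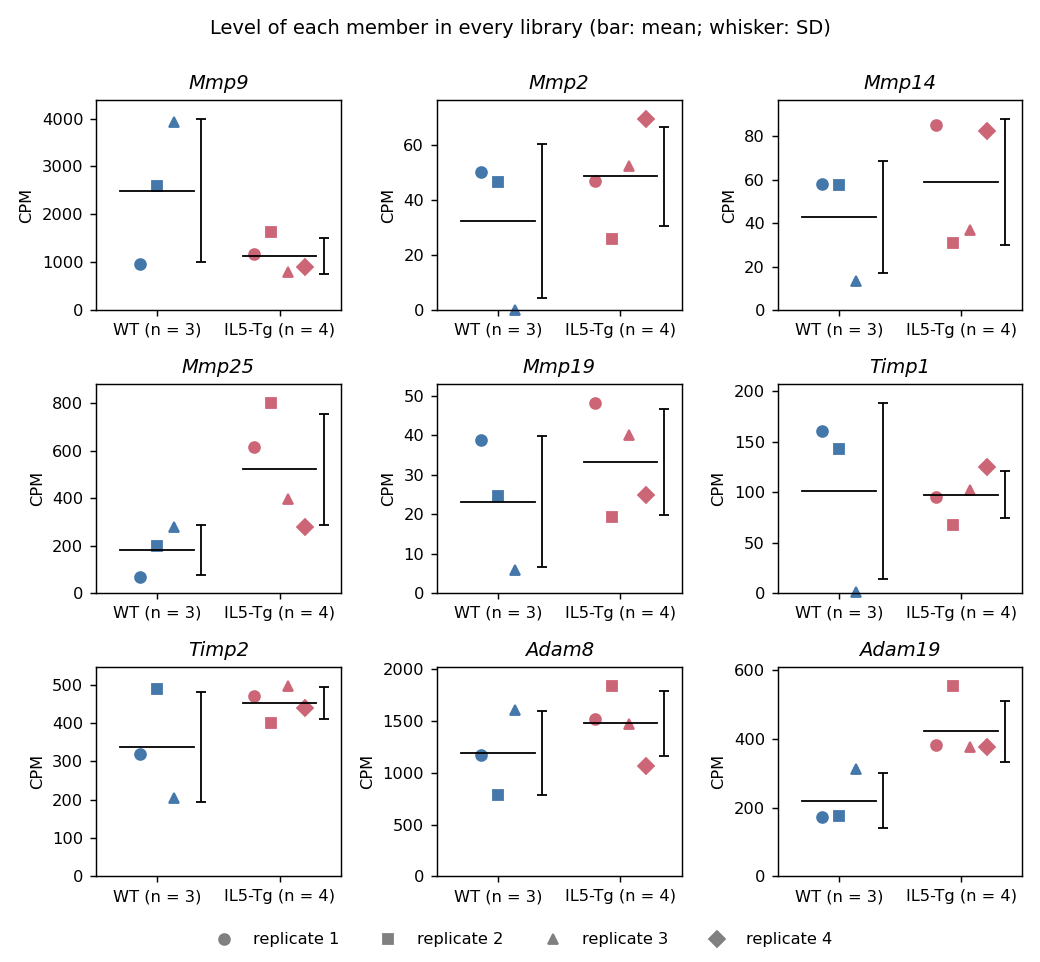
Level of each of the 9 genes in every library, in CPM on linear axes from 0, with 3 WT libraries in blue and 4 IL5-Tg libraries in red, the group mean as a bar and the SD as a whisker. Adam19 is the gene whose groups do not overlap, and WT replicate 3 (blue triangle) is the lowest WT library for Mmp2, Mmp14, Mmp19, Timp1 and Timp2 and the highest for Mmp9, Mmp25, Adam8 and Adam19.

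The 9 genes fell into 2 patterns among the WT libraries. Mmp9, Mmp25, Adam8 and Adam19 were highest in WT replicate 3, at 222%, 209%, 163% and 179% of the mean of WT replicates 1 and 2. Mmp2, Timp1, Mmp19, Mmp14 and Timp2 were lowest in it, at 0%, 0.624%, 18.4%, 22.8% and 50.3% of that mean. Of all tested genes 29.9% were highest and 42.3% lowest in WT replicate 3 among the WT libraries, so neither share is particular to these genes. Beside them, the fibroblast genes Col1a1, Col1a2 and Col3a1 stood at 0.770%, 0.319% and 0.405%, and the eosinophil genes Ccr3 and Il5ra at 143% and 173%. In RNA of a sorted population, fewer cells of a type and less RNA per cell cannot be told apart.

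**Figure D2:**
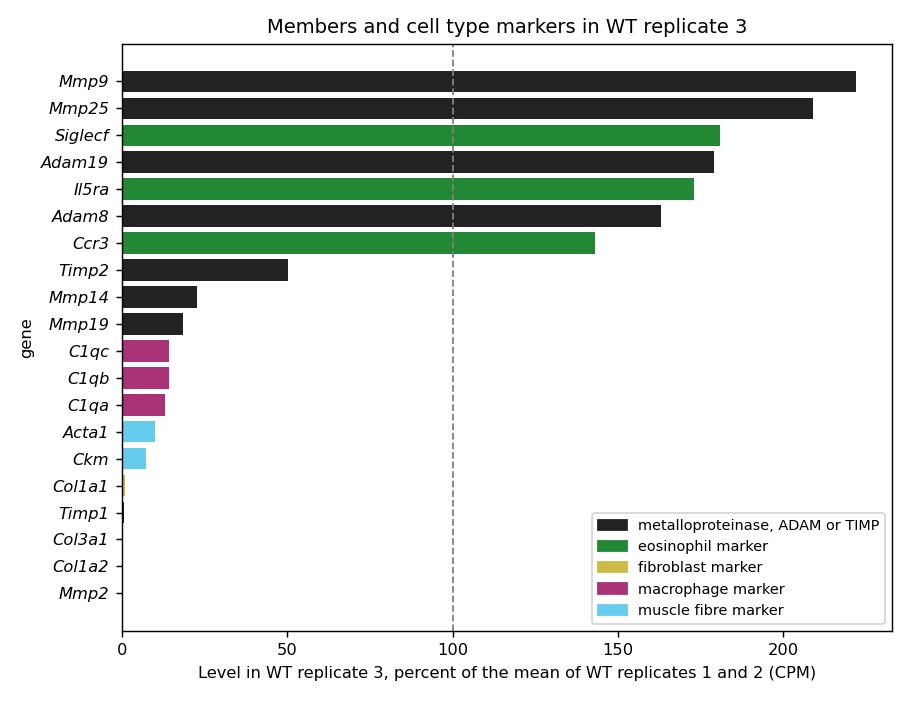
Level in WT replicate 3 as a percent of the mean of WT replicates 1 and 2, for the 9 genes and for markers of eosinophils, fibroblasts, macrophages and muscle fibres; the dashed line marks 100%. Mmp9, Mmp25, Adam8 and Adam19 lie above it, Adam8 and Adam19 among the eosinophil markers and Mmp9 and Mmp25 higher than all of them. Mmp2 and Timp1 lie at the level of the collagen genes.

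Among the gelatinases, enzymes that cleave denatured collagen and the type IV collagen of basement membranes, Mmp9 was by far the more abundant. Mmp9 lies on the plus strand of chromosome 2, from 164940780 to 164955850 (GENCODE vM21, mm10). Its level was 952, 2589 and 3932 CPM in WT replicates 1 to 3, and 1175, 1637, 803 and 904 CPM in IL5-Tg replicates 1 to 4. WT replicates 2 and 3 were above every IL5-Tg library, but WT replicate 1 lay within the IL5-Tg range, so the groups overlapped. The means were 2491 ± 1493 CPM (SD, n = 3) in WT and 1130 ± 373 CPM (SD, n = 4) in IL5-Tg, so the log2 fold change was -1.14 with an SE of 0.44 (edgeR adjusted p = 0.467). Without WT replicate 1, a library at 952 CPM, the log2 fold change of Mmp9 was -1.52 by edgeR (adjusted p = 0.206) and -1.55 by DESeq2 (adjusted p = 0.00328), where DESeq2 called 0.678% of tested genes lower. Without WT replicate 3 the log2 fold change was -0.63 by edgeR (adjusted p = 0.753).

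Mmp9 is known as a granule enzyme of neutrophils as well as a product of eosinophils, so neutrophil markers are set beside it. The summed level of the 10 neutrophil markers, of which 9 were in the table and 8 tested, was 9229 to 10436 CPM in WT and 2505 to 4288 CPM in IL5-Tg libraries. Nearly all of it was Retnlg, at 8849 to 10302 CPM in WT libraries. The list went opposite ways between genotypes: edgeR called Retnlg lower and Ngp higher in IL5-Tg libraries, and without WT replicate 3 also S100a8 and S100a9 lower. Ngp, a granule protein gene and the first marker of the list, had 6, 0 and 0 reads in the 3 WT libraries and 282, 342, 368 and 646 reads in IL5-Tg replicates 1 to 4. S100a8, named here after its values were seen, was at 157, 65.1 and 2.36 CPM in WT replicates 1 to 3, and S100a9 at 171, 43.2 and 5.77 CPM; in IL5-Tg libraries they were at 5.43 to 10.8 and 4.78 to 10.3 CPM. The part of neutrophil RNA in the Mmp9 levels was not tested. The markers also went different ways in WT replicate 3, the library with the highest Mmp9. S100a8 and S100a9 were the lowest of the WT libraries there, and Mmp8, the neutrophil collagenase, was at 1.70 CPM. Retnlg was at 9838 CPM there, or 103% of the mean of WT replicates 1 and 2.

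Mmp2, the gelatinase best known from fibroblasts, lies on the plus strand of chromosome 8, from 92827291 to 92853420 (GENCODE vM21, mm10). Its level was 50.3, 46.6 and 0 CPM in WT replicates 1 to 3 and 47.0, 25.9, 52.3 and 69.4 CPM in IL5-Tg replicates 1 to 4. WT replicate 3 alone had no Mmp2 read, which allows up to 0.284 CPM by a floor of 3 reads; counting floors cover counting error only. Low counts in that library were most often 12 reads, or 1.13 CPM. The log2 fold change was 0.59 ± 1.20 (SE; edgeR adjusted p = 0.942) and, without WT replicate 3, 0.03 ± 0.34 (SE; edgeR adjusted p = 0.996). Per 1000 CPM of the summed fibroblast markers, Mmp2 measured 16.9 and 14.2 CPM for WT replicates 1 and 2, with a range of 10.8 to 18.3 CPM over the IL5-Tg libraries.

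The membrane-anchored enzymes were Mmp14, which is held by a transmembrane segment and activates the Mmp2 precursor at the cell surface, and Mmp25, which is held by a lipid anchor and is best known from leukocytes. They differed in which libraries were high. Mmp25 lies on the minus strand of chromosome 17, from 23628311 to 23645277 (GENCODE vM21, mm10). Its level was 70.1, 197 and 280 CPM in WT replicates 1 to 3 and 616, 802, 395 and 277 CPM in IL5-Tg replicates 1 to 4. IL5-Tg replicate 4 and WT replicate 3 were about level, and the other 3 IL5-Tg libraries were above every WT library. The WT mean was 182 ± 106 CPM (SD, n = 3) and the IL5-Tg mean 523 ± 234 CPM (SD, n = 4), so the log2 fold change was 1.52 with an SE of 0.50 (edgeR adjusted p = 0.386). Without WT replicate 3 it was 1.98 ± 0.51 (SE; edgeR adjusted p = 0.145), and there DESeq2 called Mmp25 and Adam19 higher (adjusted p = 0.000802 for Mmp25), beside 1.60% of all tested genes. DESeq2 called Mmp25 also without IL5-Tg replicate 4 (log2 fold change 1.72, adjusted p = 0.0298), where it called 1.09% of tested genes higher. With all libraries, DESeq2 gave Mmp25 an adjusted p of 0.0685. Beside it, Prg2, the major basic protein gene of eosinophils, was at 112, 104 and 144 CPM in WT replicates 1 to 3 and 1023, 1122, 692 and 423 CPM in IL5-Tg replicates 1 to 4. Of the 10 eosinophil markers 8 had log2 fold changes above 0, but the defining markers Ccr3 and Il5ra went the other way. Ccr3 was at 640 to 1393 CPM in WT and 575 to 1058 CPM in IL5-Tg libraries. Il5ra was at 83.8 to 181 CPM in WT and 48.0 to 88.3 CPM in IL5-Tg libraries.

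Mmp14 lies on the plus strand of chromosome 14, from 54431612 to 54445364 (GENCODE vM21, mm10). Its level was 58.3, 57.7 and 13.2 CPM in WT replicates 1 to 3 and 85.2, 30.8, 37.1 and 82.7 CPM in IL5-Tg replicates 1 to 4. The IL5-Tg libraries split into a higher and a lower pair on either side of WT replicates 1 and 2. The log2 fold change was 0.45 ± 0.55 (SE; edgeR adjusted p = 0.905), and 0.04 without WT replicate 3. In WT replicate 3 Mmp14 had 140 reads, where Mmp2 had 0. Per 1000 CPM of macrophage markers Mmp14 stood at 3.43 CPM there, against 15.7 and 10.7 CPM in WT replicates 1 and 2. The IL5-Tg libraries ranged from 6.24 to 16.6 CPM on this scale. Most of the marker sum in WT replicate 3 was Adgre1. C1qa, C1qb and C1qc stood there at 13.1%, 14.3% and 14.3% of the mean of WT replicates 1 and 2. Mmp14 stood at 22.8% of that mean.

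Mmp19, a secreted enzyme that cleaves basement membrane proteins, lies on the plus strand of chromosome 10, from 128790910 to 128800824 (GENCODE vM21, mm10). It was the gene of the 9 with the lowest level per exon length in both groups. Its level was 38.9, 24.7 and 5.86 CPM in WT replicates 1 to 3 and 48.3, 19.3, 40.2 and 24.8 CPM in IL5-Tg replicates 1 to 4. The groups overlapped, with so the log2 fold change was 0.51 with an SE of 0.56 (edgeR adjusted p = 0.894) and 0.08 without WT replicate 3. Mmp19 overlaps Tmem198b on the opposite strand, which had 12 to 160 reads per library. The strand setting of the counting is not given in the sources used here. Reads of overlapping genes may therefore have been counted for the other gene or set aside as ambiguous.

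Of the inhibitors, Timp1, which blocks most secreted metalloproteinases and binds the Mmp9 precursor, depended most on the choice of libraries. Timp1 lies on the plus strand of chromosome X, from 20870166 to 20874735 (GENCODE vM21, mm10). Its level was 160, 142 and 0.945 CPM in WT replicates 1 to 3 and 95.4, 67.8, 102 and 125 CPM in IL5-Tg replicates 1 to 4. WT replicates 1 and 2 were above every IL5-Tg library, and WT replicate 3, with 10 reads, was below all of them. The means of 101 ± 87.4 CPM (SD, n = 3) and 97.6 ± 23.6 CPM (SD, n = 4) gave so the log2 fold change was -0.05 with an SE of 1.09 (edgeR adjusted p = 0.995). Without WT replicate 3 it was -0.61 ± 0.28 (SE; edgeR adjusted p = 0.561), and without WT replicate 1 or 2 it was 0.45 or 0.32. Per 1000 CPM of fibroblast markers, Timp1 was at 54.0, 43.4 and 55.9 CPM in WT replicates 1 to 3 and at 22.0, 33.9, 35.6 and 25.1 CPM in IL5-Tg replicates 1 to 4. On this scale, which was chosen after the values were seen and was not tested, the groups did not overlap. How many of all tested genes do not overlap on this scale was not counted, so the separation is not shown to be particular to Timp1. For ratios with Mmp9, Mmp25 and Adam19 that share was 11.5%, 32.8% and 37.8%. The value of WT replicate 3 rests on 10 reads over a marker sum of 16.9 CPM. Low counts in that library were most often 12 reads, so its place beside the other WT libraries is uncertain. Timp1 lies within Syn1, which is on the opposite strand and had 33 to 140 reads per library.

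Timp2, an inhibitor that also helps Mmp14 to activate the Mmp2 precursor, was steadier. It lies on the minus strand of chromosome 11, from 118301069 to 118355740 (GENCODE vM21, mm10), and Cep295nl lies in the same stretch on the same strand. Its level was 319, 490 and 203 CPM in WT replicates 1 to 3 and 472, 400, 497 and 441 CPM in IL5-Tg replicates 1 to 4. WT replicate 2 lay within the IL5-Tg range and the other WT libraries below it. The log2 fold change was 0.42 ± 0.30 (SE; edgeR adjusted p = 0.790). Without WT replicate 2 it was 0.82 (edgeR adjusted p = 0.168) and DESeq2 called Timp2 higher (log2 fold change 0.84, adjusted p = 0.0267), along with 3.42% of tested genes. Per 1000 CPM of macrophage markers Timp2 was at 86.0, 91.2 and 52.7 CPM in WT replicates 1 to 3 and at 81.0 to 92.1 CPM in IL5-Tg libraries. Most of the marker sum in WT replicate 3 was Adgre1. Timp2 itself stood there at 50.3% of the mean of WT replicates 1 and 2, above C1qa, C1qb and C1qc at 13.1% to 14.3%.

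The ADAM proteases were expressed in every library. Adam8, a leukocyte enzyme that cleaves adhesion molecules, lies on the minus strand of chromosome 7, from 139978932 to 139992562 (GENCODE vM21, mm10). Its level was 1176, 791 and 1607 CPM in WT replicates 1 to 3 and 1526, 1842, 1477 and 1071 CPM in IL5-Tg replicates 1 to 4. WT replicate 2 was the lowest library and IL5-Tg replicate 2 the highest, and the same held for Siglecf, at 251 and 857 CPM. It did not hold for the eosinophil markers Ccr3 and Il5ra, which were highest in WT replicate 3, at 1393 and 181 CPM. The log2 fold change of Adam8 was 0.31 ± 0.31 (SE; edgeR adjusted p = 0.871), and without WT replicate 3 it was 0.62 ± 0.32 (SE; edgeR adjusted p = 0.627).

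Adam19, an enzyme that processes neuregulins, lies on the plus strand of chromosome 11, from 46055992 to 46147343 (GENCODE vM21, mm10). Its level was 173, 176 and 312 CPM in WT replicates 1 to 3 and 382, 554, 376 and 377 CPM in IL5-Tg replicates 1 to 4. Every IL5-Tg library was above every WT library. Adam19 was the 1 gene of the 9, or 11.1%, whose groups did not overlap, where 9.36% of all tested genes did not overlap, 4.76% higher and 4.60% lower in IL5-Tg. The WT mean was 220 ± 79.5 CPM (SD, n = 3) and the IL5-Tg mean 422 ± 88.2 CPM (SD, n = 4), so the log2 fold change was 0.94 with an SE of 0.30 (edgeR adjusted p = 0.340). Without WT replicate 3 it was 1.30 ± 0.30 (SE; edgeR adjusted p = 0.0895), and DESeq2 then called it higher (log2 fold change 1.30, adjusted p = 0.000841). With all libraries DESeq2 gave an adjusted p of 0.110.

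**Figure D3:**
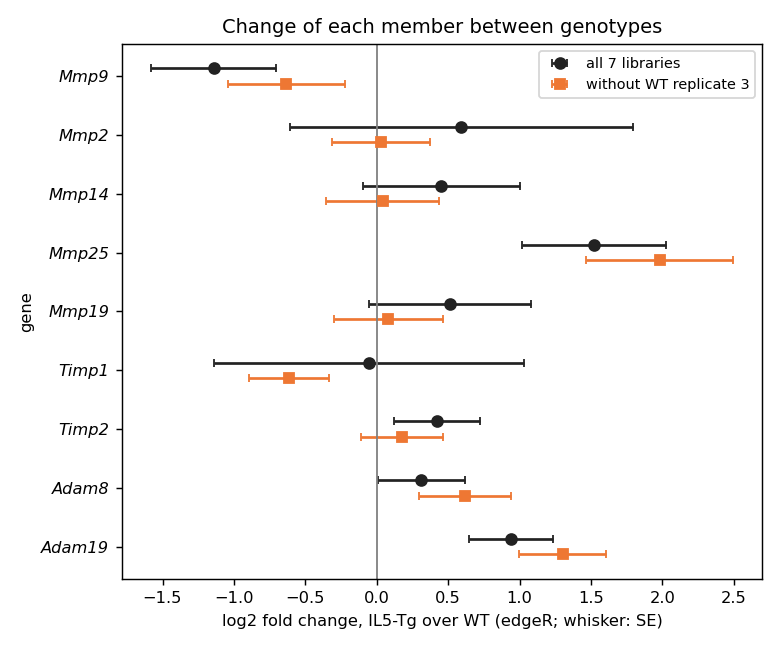
Log2 fold change of each of the 9 genes, IL5-Tg over WT, by edgeR with its SE, from all 7 libraries (black circles) and without WT replicate 3 (orange squares). When that library is left out, Mmp9, Mmp25, Adam8 and Adam19 move up and Mmp2, Mmp14, Mmp19, Timp1 and Timp2 move down. None of the values passed the adjusted threshold, with all libraries or without WT replicate 3.

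Set against each other within a library, Mmp9 and Mmp25 gave the widest separation between genotypes. Without an added constant, a ratio of 2 genes of the same library does not depend on how libraries are scaled. With 0.5 CPM added, it depends on scaling where a gene is near 0. Divided by exon length, and with 0.5 CPM added to each gene, the ratio of Mmp9 to Mmp25 was 20.2, 19.6 and 21.0 in WT replicates 1 to 3. It was 2.86, 3.06, 3.04 and 4.89 in IL5-Tg replicates 1 to 4. The WT libraries thus held nearly the same ratio while Mmp9 itself ranged from 952 to 3932 CPM among them, and the lowest WT ratio was 4.01 times the highest IL5-Tg ratio. The ratio was chosen after the values were seen and was not tested.

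Of the 36 pairs among the 9 genes, 5 pairs, or 13.9%, had ratios that did not overlap between genotypes. These pairs were Mmp9 with Mmp25, Mmp9 with Adam19, Adam8 with Adam19, Mmp25 with Adam8, and Mmp2 with Timp1, the last resting in WT replicate 3 on the added 0.5 CPM. The gap was 1.78-fold for Mmp9 with Adam19 and at most 1.12-fold for the other 3 pairs. Of all other tested genes 11.5% had a ratio with Mmp9 that did not overlap, and 0.290%, or 36 genes including Mmp25, were separated by a gap at least as wide as that of Mmp25. For ratios with Mmp25 the share not overlapping was 32.8%, and with Adam19 it was 37.8%. The ratio of Mmp25 to Adam19 overlapped, at 0.546 to 1.51 in WT and 0.986 to 2.17 in IL5-Tg libraries.

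**Figure D4:**
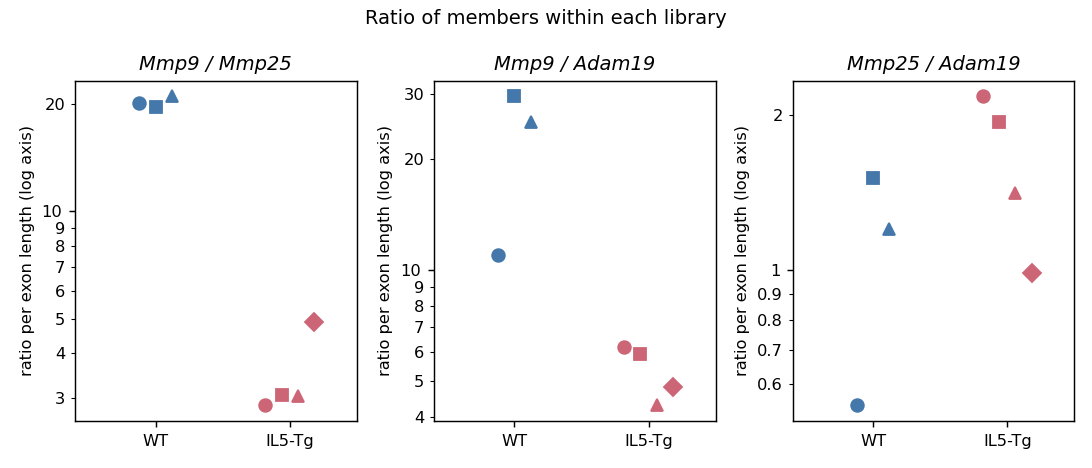
Ratio of levels per exon length within each library, on log axes, for Mmp9 over Mmp25, Mmp9 over Adam19 and Mmp25 over Adam19; blue symbols are 3 WT and red symbols 4 IL5-Tg libraries. The WT libraries lie between 19.6 and 21.0 and the IL5-Tg libraries between 2.86 and 4.89 for Mmp9 over Mmp25, and the groups overlap for Mmp25 over Adam19.

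The promoters of 3 of these genes are shown because Mmp25 and Adam19 had the largest positive log2 fold changes of the 9 and Timp1 was the inhibitor nearly absent from WT replicate 3. RefSeq promoters (GRCm38.p6, the mm10 assembly) were matched by symbol for 6 of the 9 genes, Mmp14, Mmp25, Timp1, Timp2, Adam8 and Adam19. Adam19 had 3 entries, and only the entry with its start site nearest the GENCODE gene start, 8 bases away, is described. Each line gives the 250 bases before the RefSeq start site, 5′ to 3′ on the gene's strand, at chr17:23645270-23645519 (minus strand), chr11:46055734-46055983 (plus strand) and chrX:20869916-20870165 (plus strand), with matches to the searched motifs in capitals.
Mmp25: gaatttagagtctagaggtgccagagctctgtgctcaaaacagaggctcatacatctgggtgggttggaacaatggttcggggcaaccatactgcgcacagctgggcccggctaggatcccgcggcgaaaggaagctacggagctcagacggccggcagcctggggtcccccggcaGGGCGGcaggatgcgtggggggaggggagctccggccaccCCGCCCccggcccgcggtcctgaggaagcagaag
Adam19: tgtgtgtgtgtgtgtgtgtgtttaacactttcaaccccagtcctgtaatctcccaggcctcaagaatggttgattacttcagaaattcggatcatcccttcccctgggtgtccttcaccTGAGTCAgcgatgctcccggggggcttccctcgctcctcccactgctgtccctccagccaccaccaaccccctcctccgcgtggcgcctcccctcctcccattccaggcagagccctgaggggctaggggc
Timp1: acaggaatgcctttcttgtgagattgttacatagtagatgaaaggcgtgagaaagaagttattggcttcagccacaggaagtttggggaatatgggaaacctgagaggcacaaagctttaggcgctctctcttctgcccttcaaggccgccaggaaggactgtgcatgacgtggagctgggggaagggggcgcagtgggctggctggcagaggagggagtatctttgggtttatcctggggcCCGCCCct
The motifs, searched on both strands, were TGANTCA for AP-1, TTCNNNGAA for STAT factors, AGATAA for GATA factors and the GC box GGGCGG. The Adam19 promoter held 1 AP-1 match, a motif found in 6.75% of 32851 RefSeq promoters of the same length. Mmp25 held 2 GC boxes and Timp1 held 1, as did 32.7% of those promoters with at least 1. None of the 6 promoters held the letters searched for STAT or GATA, which are in 7.02% and 9.99% of all promoters. A match describes letters only and is not evidence of binding.

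Compared per length, as RPKM, which is CPM divided by exon length in kilobases, the order of levels in WT libraries began with Mmp9 at 704 ± 422 RPKM (SD, n = 3) and Adam8 at 257 ± 88.0 RPKM. Timp1 followed at 114 ± 98.4, Timp2 at 86.6 ± 37.0, Mmp25 at 34.4 ± 19.9 and Adam19 at 30.9 ± 11.2 RPKM. Mmp2, Mmp14 and Mmp19 were last, at 9.58 ± 8.32, 7.22 ± 4.33 and 6.55 ± 4.69 RPKM. Between neighbours in this order the ranges over libraries overlapped, except between Adam19 and Mmp2. In IL5-Tg libraries Mmp9 and Adam8 were both at 319 RPKM (SD 105 and 68.3, n = 4), and the ranges of neighbours did not overlap between Adam8 and Timp2 or between Adam19 and Mmp2. Exon lengths are those of GENCODE vM21, since the annotation behind the counts is not given in the sources used here.

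For each gene, the most similar profile over the 7 libraries was sought among 9319 tested genes with a mean of at least 5 CPM, by the root mean square difference of centred log2(CPM + 1) values. Nearest to Mmp2 were Serpinf1 (difference 0.132), Col4a1 (0.154) and Bmp1 (0.218), and nearest to Timp1 were Serpinf1 (0.263), Ly6c1 (0.300) and Mmp2 (0.309). Mmp25 was closest to Spns3 (0.287), Cd101 (0.301) and the eosinophil peroxidase gene Epx (0.340). Adam8 was closest to Rnase6 (0.0886), Glipr2 (0.0923) and Siglecg (0.103). The nearest genes were Ppp1r10 (0.246) for Mmp9, Ank3 (0.136) for Mmp14, Arfip2 (0.188) for Mmp19, Mavs (0.0556) for Timp2 and Rbm15b (0.110) for Adam19. These distances describe 7 libraries that share RNA of other cells.

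No other gene of the protease families passed the test by edgeR. Of 18 other Mmp genes 9 were tested, none of which reached an unadjusted p under 0.05, and 5 had no read in any library. The most abundant were Mmp12, the macrophage elastase, at 21.0 ± 26.2 CPM in WT and 39.7 ± 25.8 CPM in IL5-Tg (SD, n = 3 and 4), Mmp23 at 9.70 and 17.0 CPM, and Mmp8 at 5.87 and 3.90 CPM. Of 30 other Adam genes 8 were tested, 1 of which, Adam33, had an unadjusted p under 0.05, and 14 had no read. The sheddase genes Adam10 and Adam17 were at 54.7 ± 17.0 and 52.3 ± 10.8 CPM in WT (SD, n = 3) and 64.9 ± 5.61 and 51.4 ± 6.05 CPM in IL5-Tg (SD, n = 4), and Adam15 was at 167 and 187 CPM.

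Of 19 Adamts genes, which encode secreted proteases, 10 were tested and 2, Adamts7 and Adamts10, had an unadjusted p under 0.05. Adamts10, the most abundant, was at 58.1, 26.8 and 55.3 CPM in WT libraries and 11.1, 8.92, 20.6 and 18.3 CPM in IL5-Tg libraries, so the log2 fold change was -1.66 with an SE of 0.39 (edgeR adjusted p = 0.145). Its groups did not overlap, while Adamts2 and Adamts1 were at 19.4 and 13.5 CPM in WT and 29.7 and 21.9 CPM in IL5-Tg. Of 9 other inhibitors and regulators 5 were tested and 0 had an unadjusted p under 0.05, among them Timp3 at 5.74 and 12.8 CPM, the membrane inhibitor Reck, with a log2 fold change of -0.68 and groups that did not overlap, and the procollagen proteinase enhancer Pcolce at 75.4 and 117 CPM. DESeq2 called 1 gene in these 4 lists, Adamts10, limma-voom called 0, and edgeR without WT replicate 3 called 0. The medians of the 4 lists were 0.64, 0.41, 0.65 and 0.63 with all libraries and 0.24, 0.07, 0.22 and 0.13 without WT replicate 3, each over the members tested in that setting.

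Around the proteases, 3 genes passed the test. Of 18 activators and regulators 16 were tested, 1 rose and 1 fell, with a median of 0.16. The riser was Plaur, the receptor of urokinase, an activator of plasminogen (log2 fold change 1.92, edgeR adjusted p = 0.0375), and the gene that fell was Thbs1, a matricellular protein that binds metalloproteinases (log2 fold change -2.29, edgeR adjusted p = 0.0497). Thbs1 was at 3649, 2461 and 8575 CPM in WT replicates 1 to 3, with a range of 760 to 1171 CPM over the IL5-Tg libraries, and without WT replicate 3 its log2 fold change was -1.58 (edgeR adjusted p = 0.0268). It did not pass with RLE scaling (edgeR adjusted p = 0.0557) or without the 10 most abundant genes (edgeR adjusted p = 0.0511). Cd44, which can hold Mmp9 at the cell surface, and Bsg, known to induce metalloproteinases, were at 728 and 431 CPM in WT and 616 and 475 CPM in IL5-Tg and did not pass. Furin, the protease that activates the precursors of Mmp14, Mmp25 and many ADAMs, is named here after its values were seen. It was at 203, 143 and 276 CPM in WT replicates 1 to 3 and 408, 569, 550 and 374 CPM in IL5-Tg replicates 1 to 4. Its groups did not overlap, and edgeR did not call it (log2 fold change 1.20, adjusted p = 0.183), while DESeq2 did.

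Of 16 surface proteins known to be shed or cleaved 14 were tested, 1 rose and 0 fell, with a median of 0.03. The riser was Hbegf, a growth factor released from the membrane by ADAM proteases. Its level was 14.3, 10.2 and 7.47 CPM in WT replicates 1 to 3 and 63.2, 64.9, 36.1 and 38.2 CPM in IL5-Tg replicates 1 to 4, so the log2 fold change was 2.24 with an SE of 0.36 (edgeR adjusted p = 0.0306). Every IL5-Tg library was above every WT library, and WT replicate 3 was the lowest. By edgeR, Hbegf and Plaur passed without WT replicate 3 but not when any other library was left out (edgeR adjusted p 0.0589 to 0.128 for Hbegf and 0.0651 to 0.170 for Plaur), and Thbs1 passed without WT replicate 2 or 3 alone (edgeR adjusted p 0.121 to 0.216 without each other library). With a block for libraries whose titles begin alike, none of the 3 passed (edgeR adjusted p = 0.181 for Hbegf, with a log2 fold change of 1.61, 0.0521 for Plaur and 0.0668 for Thbs1). DESeq2 called all 3 of these genes with all libraries and with each library left out, and limma-voom called Plaur and not Hbegf or Thbs1. The abundant members Csf1r, Selplg and Tnfrsf1b were at 715, 537 and 340 CPM in WT and 927, 795 and 266 CPM in IL5-Tg and did not pass.

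Of 18 matrix genes that these enzymes can cleave, all were tested and 0 changed by edgeR, DESeq2 or limma-voom, with 1, Vcan, at an unadjusted edgeR p under 0.05. Of their log2 fold changes 17 were above 0, with a median of 0.66, and of 0.11 without WT replicate 3. Their sum was 4695, 5186 and 254 CPM in WT replicates 1 to 3 and 3131 to 7476 CPM in IL5-Tg libraries. Col3a1, Col1a2 and Col1a1 were the most abundant and nearly absent from WT replicate 3, like Mmp2 and Timp1. The part of this RNA in the differences of Mmp2, Mmp14, Mmp19, Timp1 and Timp2 was not tested.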

How the data were processed

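RNA of sorted muscle eosinophils was sequenced in 3 WT and 4 IL5-Tg libraries, which the labels' protocols describe as strand-specific mRNA libraries read in pairs on a NextSeq. The authors deposited 1 table of unnormalized read counts by gene symbol; that unit was read from whole numbers with unequal sums. The submitters' processing notes name bcl2fastq 2.20, Bowtie, STAR and mm10, and neither their roles nor the counting program, annotation or strand setting is stated. Total counts ranged from 11581365 to 20231509. Reads of no feature (9.15% to 18.2%) and ambiguous reads (0.750% to 0.943%) stayed out. Those of no feature were 16.5%, 15.6% and 18.2% in WT replicates 1 to 3. In IL5-Tg replicates 1 to 4 they were 9.15%, 12.2%, 9.78% and 13%. Low counts were most often 5, 8 and 12 reads in the WT and 1, 1, 1 and 4 reads in the IL5-Tg libraries. In both measures the genotypes did not overlap, and the part of this in the differences between genotypes was not tested. Columns were matched by sample title, and replicate numbers follow accession order and only name a library.

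All 12428 genes kept by filterByExpr were fitted with edgeR 4.0.16 (R 4.3.3; TMM, robust quasi-likelihood F test on genotype), with Benjamini-Hochberg adjustment over all of them and a threshold of 0.05. SEs derive from the fold change and F. The procedure was tested on simulated counts. Alternatives were RLE and upper-quartile scaling, other count filters, DESeq2 1.42.0, limma-voom (limma 3.58.1), a block for the start of sample titles, removal of the 10 most abundant genes, unscaled CPM and omission of single libraries. Chosen after seeing the data were DESeq2 with single libraries omitted and counts divided by the most common low count of the library (1 to 12 reads).

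The 9 genes and all gene lists were chosen with earlier results of these data known. Named are the 9 genes, the called and the 3 most abundant tested genes of each protease, inhibitor, regulator, matrix and surface protein list, the first markers of cell type lists and the nearest profiles. Some names lie outside this rule and rest on their values. Prg2, Ear1, Ear6, Hdc, Gata2 and Atp2a1 are named as called markers, and Adgre1 for its abundance. Adam33, Adamts7 and Vcan are named for an unadjusted p under 0.05. Other names outside the rule are marked, apart from genes that overlap the 9. Positions and exon lengths come from GENCODE vM21 (mm10).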

Additional observations from a re-analysis of the deposited data

Results flagged for a closer look

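Adam19 was marked because 1 of its 4 IL5-Tg libraries lay far from the others: IL5-Tg replicate 2 was at 554 CPM, and the other 3 were at 376 to 382 CPM. Without IL5-Tg replicate 2 the log2 fold change of Adam19 was 0.78 (edgeR adjusted p = 0.774). Siglecf was also highest in that library, at 857 CPM. Ccr3 and Il5ra were highest there among the IL5-Tg libraries, at 1058 and 88.3 CPM, but below WT replicate 3, at 1393 and 181 CPM.

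The ratio of Mmp9 to Mmp25 per exon length was marked because IL5-Tg replicate 4, at 4.89, lay far from the other IL5-Tg libraries, at 2.86 to 3.06. All of these were below the lowest WT ratio of 19.6. Low counts in IL5-Tg replicate 4 were most often 4 reads, against 1 read in each other IL5-Tg library. In WT replicates 1 to 3 they were most often 5, 8 and 12 reads. Of 33 groups of 4 libraries checked in this way 2 were marked, and chance marks about 1 in 20.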

How the results depend on the processing

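The count of 51 changed genes was 225 by DESeq2, 32 by limma-voom and 100 after division by the most common low count. Omitting each library it ranged from 16 to 97 by edgeR, and by DESeq2 it was 313, 830 and 277 without WT replicates 1 to 3 and 107, 134, 126 and 233 without IL5-Tg replicates 1 to 4. None of the 9 genes was called under any edgeR or limma-voom setting or by DESeq2 with all libraries. DESeq2 called 1 without WT replicate 1 (Mmp9), 1 without WT replicate 2 (Timp2), 2 without WT replicate 3 (Mmp25 and Adam19), 1 without IL5-Tg replicate 4 (Mmp25) and 0 without each other library. Over 23 alternatives per gene, log2 fold changes ranged from -1.55 to -0.63 for Mmp9, 1.11 to 1.99 for Mmp25, 0.77 to 1.30 for Adam19, 0.11 to 0.62 for Adam8 and 0.17 to 0.84 for Timp2. Timp1 reversed in 7 of 23. It was 0.58 by limma-voom, and omitting each library by edgeR it ranged from -0.61 to 0.45, with 0.32 and 0.10 for WT replicate 2 and IL5-Tg replicate 2. By DESeq2 it was 0.42, 0.35 and 0.11 when WT replicate 1, WT replicate 2 or IL5-Tg replicate 2 was omitted. Mmp14 reversed to -0.065 with the title start as a block; the cause was not tested. By replicate number, no paired analysis was possible because the numbers follow accession order and pair nothing. Titles, however, share a start between WT replicate 1 and IL5-Tg replicate 3 and between WT replicate 2 and IL5-Tg replicate 4, and do not say what it marks. With that start as a block, where the fold changes rest on these 2 pairs, 52 genes and 0 of the 9 were called, and Hbegf, Plaur and Thbs1 were lost. Few reads in WT replicate 3 limit Mmp2 and Timp1.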

Other observations

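Some surface proteins of leukocytes that proteases are known to cut had lower levels in IL5-Tg libraries without passing the test by edgeR; they are named after their values were seen, from a list of 14 tested genes with 7 log2 fold changes above 0 and a median of 0.03. Icam1, an adhesion ligand for leukocyte integrins, was at 187, 226 and 456 CPM in WT replicates 1 to 3 and 151, 172, 77.1 and 109 CPM in IL5-Tg replicates 1 to 4 (log2 fold change -1.19, edgeR adjusted p = 0.327). Notch1, a receptor activated by ADAM cleavage, was at 161, 199 and 398 CPM in WT and 110, 146, 85.6 and 83.9 CPM in IL5-Tg libraries (log2 fold change -1.25, edgeR adjusted p = 0.239). In both genes the groups did not overlap, as in 4.60% of all tested genes for this direction, and WT replicate 3 was the highest library. Tnf, the cytokine for whose shedding Adam17 was named, was at 101, 22.8 and 57.4 CPM in WT and 16.5 to 23.7 CPM in IL5-Tg libraries (log2 fold change -1.65, edgeR adjusted p = 0.195), with overlapping groups, and DESeq2 called it lower.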
